A study of Rattus norvegicus with 20 samples.

Results

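Mitosis genes are the genes whose products condense chromosomes, build the spindle, hold chromosomes back until all are attached and then cut the cell in 2. A list of 45 such genes was looked up by name among the 35561 gene names of a rat microarray, and 34 of them had a probe of that name. Where a gene had more than 1 probe, the probe with the highest mean signal over the 20 arrays was used. The test took a gene whose probe stood well above background throughout 1 or more of the groups, which left 33 of the 34. The phosphatase gene Cdc25c, above background on 7 arrays, did not pass, and 25 of the 33 were above background on all 20 arrays. The other 8 (Aurkb, Ccnb2, Cdc25b, Cenpe, Kif11, Kif22, Nusap1 and Spag5) had between 11 and 19 arrays above background.

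Primary cultures were made from the hearts of neonatal rats, grown for 1 day and left untreated (2 arrays) or given celecoxib, an inhibitor of cyclo-oxygenase 2. The drug was used at reference concentrations of 1, 1/5 and 1/25, whose absolute values the labels do not give, for 6 h or 24 h, with 3 arrays in each of these 6 groups. The labels give no time for the untreated cultures, so time in culture and celecoxib cannot be told apart in a comparison with them. Nothing in the labels says that replicates came from separate animals or cultures, so the p-values rest on the spread among these arrays alone, and that spread may be technical.

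Entry into mitosis is set off by B-type cyclins bound to the kinase CDK1, and it ends when the anaphase-promoting complex (APC/C) marks the cyclins and securin for destruction. Most of these genes are transcribed in a wave late in the cell cycle. Their promoters are known for a short element called the cell cycle genes homology region (CHR), often next to CCAAT boxes bound by NF-Y, and complexes on the CHR hold the genes down in resting cells and turn them on before division. Heart muscle cells of the rat largely leave the cell cycle after birth, and cultures of neonatal heart also hold fibroblasts and other cells that go on dividing.

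Promoters are shown first because they are a property that the arrays did not measure. The genes were chosen as mitosis genes, a class known for these elements, so high shares were likely from the choice itself. RefSeq promoter windows (build GRCr8, 250 bases before to 50 after the annotated start) were matched for 40 of the 45 genes, all but Aurkb, Ccna2, Racgap1, Tpx2 and Ube2c. The CHR was searched as TTTGAA or TTCGAA and the CCAAT box as CCAAT, both on either strand. The lines below give the 120 bases that end 1 base before the start, on the strand of the gene and 5′ to 3′, with CHR and CCAAT matches in capitals. Ccnb2, Cdc20, Cdca8 and Kif22 show how the 2 elements sit. Birc5 shows a CHR close to the start, with its only CCAAT box upstream of the printed stretch. Kif11 and Bub1 are printed because their expression values matter below.
Ccnb2: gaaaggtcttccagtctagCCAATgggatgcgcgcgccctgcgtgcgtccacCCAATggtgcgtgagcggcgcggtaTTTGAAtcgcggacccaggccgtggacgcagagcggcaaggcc
Cdc20: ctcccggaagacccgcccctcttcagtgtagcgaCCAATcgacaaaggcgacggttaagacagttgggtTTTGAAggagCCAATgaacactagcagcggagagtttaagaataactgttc
Cdca8: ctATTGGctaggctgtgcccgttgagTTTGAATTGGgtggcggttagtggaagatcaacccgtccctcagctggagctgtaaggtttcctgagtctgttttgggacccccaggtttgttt
Birc5: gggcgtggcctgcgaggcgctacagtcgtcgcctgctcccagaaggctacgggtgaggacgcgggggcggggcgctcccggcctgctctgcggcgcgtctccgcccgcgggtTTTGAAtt
Kif22: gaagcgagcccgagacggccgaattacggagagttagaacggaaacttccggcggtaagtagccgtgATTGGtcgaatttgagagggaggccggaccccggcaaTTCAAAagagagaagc
Kif11: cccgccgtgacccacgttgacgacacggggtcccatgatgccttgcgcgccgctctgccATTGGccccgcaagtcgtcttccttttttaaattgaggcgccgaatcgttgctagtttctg
Bub1: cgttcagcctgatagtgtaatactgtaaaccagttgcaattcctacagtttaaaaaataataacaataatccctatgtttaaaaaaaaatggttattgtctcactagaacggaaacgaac
These windows lie at chr8:79981659-79981778 (Ccnb2, minus strand), chr5:137255800-137255919 (Cdc20, minus), chr5:142483200-142483319 (Cdca8, minus), chr10:103572026-103572145 (Birc5, plus), chr1:191080879-191080998 (Kif22, minus), chr1:244536747-244536866 (Kif11, plus) and chr3:135504922-135505041 (Bub1, minus). In Ccnb2 both CCAAT boxes lie upstream of the CHR on the coding strand. In Cdc20 the CHR lies between its CCAAT boxes, and in Cdca8 the CHR and a reversed CCAAT overlap. In the printed stretch of Kif22 the CHR and the CCAAT box are both reversed, and a forward CCAAT box starts upstream at -231. The Kif11 window holds a reversed CCAAT box and no CHR match, and the Bub1 window holds neither. Ccnb1, Cdca3, Cenpe, Kif20a and Nek2 likewise had CCAAT matches without a CHR match, and Aurka, Kif2c and Ncaph had neither. Whether these elements go with the expression differences was not tested.

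Over the whole 300 bases, a CHR match was present in 30 of the 40 promoters, or 75%, against 19.5% of the 27457 promoters in the table. A CCAAT box was present in 31 (77.5% against 37.7%), and both were present in 25 (62.5% against 7.83%). In the 150 bases from 100 before the start to 50 after it, the shares were 70% against 8.68% for the CHR and 65% against 21.8% for CCAAT. Aurka, Bub1, Kif2c and Ncaph had no match to either element in the window searched. Any further annotated starts of a gene were not searched. Of the E2F motif only the forms TTTGGCGC and TTTCGCGC were searched, on both strands. They had no match in the 40 windows and one in 0.841% of all promoters, a share too low for 40 windows to show a lack. Other forms of the motif were not searched. A match is a run of letters and not a measured binding site.

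**Figure D1:**
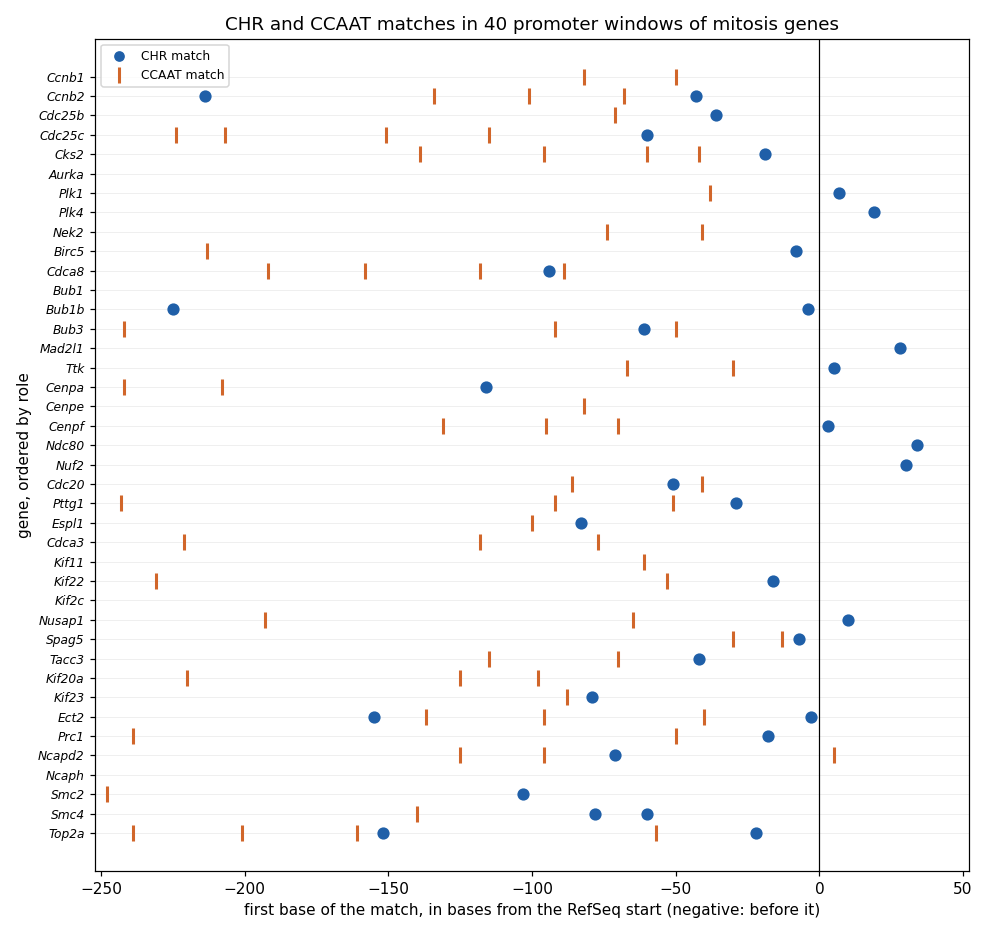
First base of each CHR match (circles) and CCAAT match (bars), in bases from the RefSeq start, for 40 mitosis genes ordered by role; the window runs from 250 bases before the start to 50 after it. CHR matches are present in 30 of the 40 rows and CCAAT matches in 31, and 28 of the 40 rows have a CHR match between 100 bases before the start and 50 after it.

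Levels below are log2 of the processed signal minus log2 of the array's 75th percentile, so 0 is the level of that percentile. They compare arrays for 1 probe and never probes with each other. The arrays were scanned on 2 days: both untreated arrays, all 9 arrays of 24 h and 3 of the 6 h arrays on day 1 (concentration 1, replicates 1 and 2, and concentration 1/25, replicate 1), and the other 6 of the 6 h arrays on day 2. Of the variance over all genes, 30.1% lay along the first principal component, and 97.9% of that component's spread lay between the days. Scan day was therefore a term in the limma fit, estimated from the concentrations 1 and 1/25 at 6 h, which had arrays on both days. The 1/5 group at 6 h lay wholly on day 2. Over the arrays 63.6% to 83.2% of the probes were well above background and 5.74% to 9.21% were saturated. Untreated replicate 1 and replicate 3 of concentration 1/25 at 6 h stood apart, with mean correlations across genes to the other arrays of 0.887 and 0.888 against 0.924 to 0.947 for the rest. Of the cardiomyocyte markers on the array, 14 of 14 were well above background on all 20 arrays. So were 7 of 10 fibroblast, 5 of 6 smooth muscle, 6 of 9 macrophage and leukocyte, 1 of 7 endothelial and 1 of 4 erythroid markers. Emcn (endothelial), Itgam (leukocyte) and Hbb (erythroid) were not well above background on any array.

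Averaged over the 33 genes, the mitosis genes read highest on the arrays of 24 h. Their mean log2 level on the 9 arrays of 24 h ran from -1.26 to -1.06 with a median of -1.14. It was -1.84 and -1.70 on the 2 untreated arrays, and over the 6 h arrays it ran from -1.69 to -1.61 on scan day 1 and from -2.09 to -1.60 on scan day 2. Every 24 h array thus lay above every other array, and the untreated and 6 h arrays overlapped. The mean over all genes tested did not part the arrays this way, with -1.29 to -1.20 at 24 h, -1.44 to -1.12 at 6 h and -1.18 and -0.99 without treatment. In bulk samples like these, a change in the number of dividing cells and a change in RNA per dividing cell cannot be told apart.

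**Figure D2:**
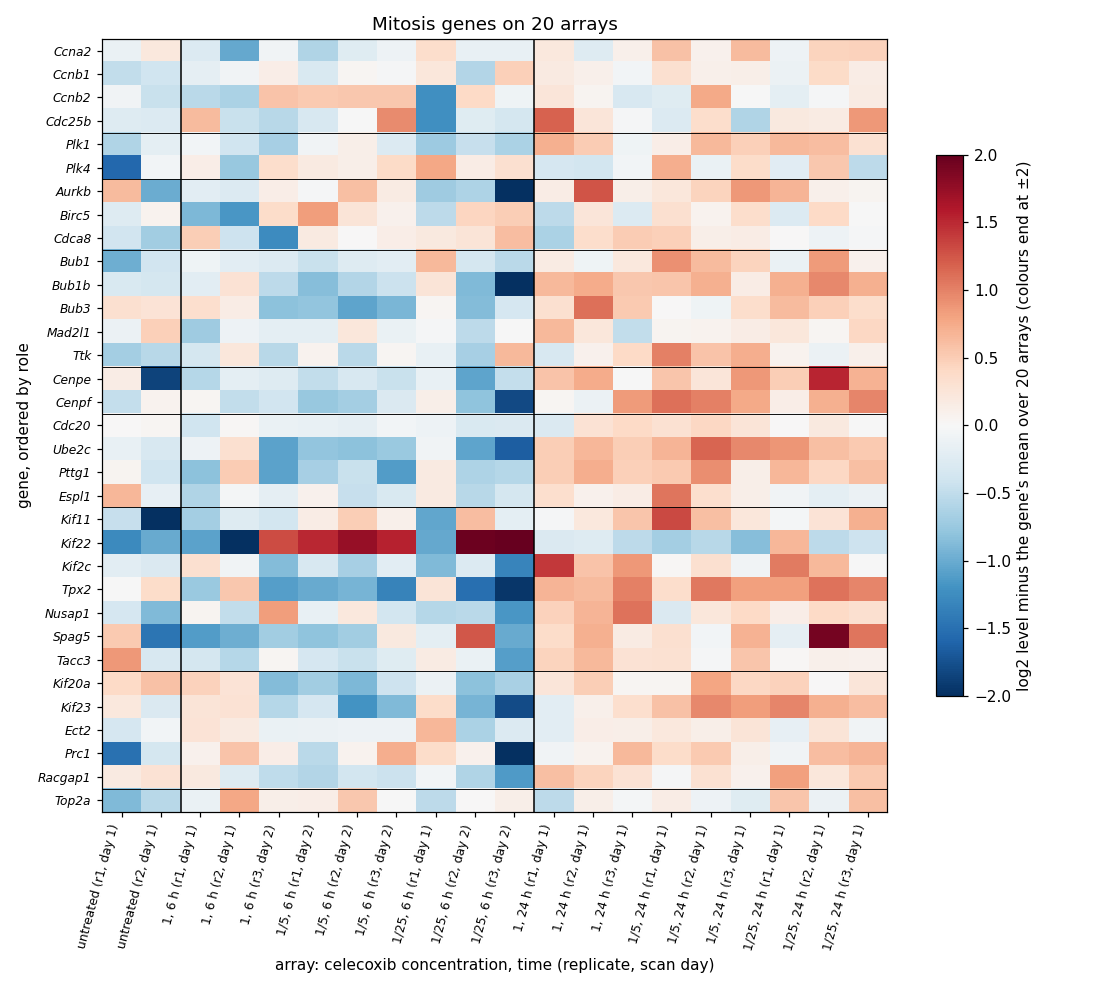
Log2 level of 33 mitosis genes on each of 20 arrays minus the gene's own mean over the arrays (red above, blue below; colours end at ±2), with genes in rows by role and arrays in columns by group, replicate and scan day. Most rows are red over the 9 arrays of 24 h at the right, and Kif22 is reddest on the 6 arrays of scan day 2.

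The first comparison set the 9 arrays of 24 h against the 2 untreated arrays, all scanned on day 1. Of the 33 genes, 29 read above untreated, with a median log2 difference of 0.65, while over all 27764 genes 49.2% read above and the median was -0.01. Ube2c and Kif11 passed an adjusted p of 0.05 in limma and both were higher, 2 of 33 against a background of 2.44% of all genes called in either direction. At an unadjusted p under 0.05 there were 18 of the 33, all of them higher, against 20.5% of all genes in either direction. In 13 of the 33 all 9 arrays of 24 h lay above both untreated arrays, against 4.24% of all genes, and in none did they all lie below, against 7.79%. The genes with all 24 h arrays above were Bub1, Bub1b, Ccnb1, Kif11, Kif22, Kif2c, Nusap1, Plk1, Prc1, Pttg1, Top2a, Ttk and Ube2c. Of these, Kif11, Kif22 and Nusap1 were above background on only 1 of the 2 untreated arrays. The 24 h groups shared no slide with the untreated arrays, so slide and treatment cannot be told apart here.

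Ube2c encodes the ubiquitin-conjugating enzyme that works with the APC/C. Its probe, at chr3:155708262-155708593 on build rn3 (plus strand), read -2.03 and -2.20 in the untreated cultures. Over the 9 arrays of 24 h it ran from -1.39 to -0.72 with a median of -1.22, and the arrays of 1/5 read -1.19, -0.72 and -0.91. The 24 h and untreated values do not overlap, and the log2 difference was 0.95 ± 0.19 (SE; limma, adjusted p = 0.0189). Without the scan day term the difference was the same and the adjusted p was 0.193, and no mitosis gene was called in that fit (background 0.692%). The adjusted p was 0.132 without untreated replicate 1 and 0.0565 without replicate 2. Ube2c was also 1 of 2 mitosis genes, with Cenpe, in which every 24 h array lay above every 6 h array of either day, a pattern seen in 0.619% of all genes. Cenpe was above background on only 6 of the 9 arrays of 6 h.

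Kif11, the motor that pushes the spindle poles apart, read -4.82 and -6.52 untreated, and only the first of these was well above background. At 24 h it read -4.39, -4.16 and -3.81 at concentration 1, -3.05, -3.76 and -4.14 at 1/5, and -4.40, -4.09 and -3.65 at 1/25, with 8 of the 9 arrays above background. The 24 h values all lay above the untreated ones, by 1.73 ± 0.39 (adjusted p = 0.0348 in limma). Much of this rested on untreated replicate 2, without which the difference was 0.88 and the adjusted p 0.202. Without untreated replicate 1 it was 2.59. Without the scan day term the adjusted p was 0.0638, and within scan day 1 alone it was 0.0545.

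The spindle checkpoint holds back anaphase until each chromosome is attached. Of its 5 genes none passed the test over the mean of the 24 h groups and 4 read above untreated. Bub1, a checkpoint kinase, read -2.04 and -1.45 untreated and from -1.21 to -0.15 over the 24 h arrays (median -0.86), without overlap and with a difference of 1.02 ± 0.26 (adjusted p = 0.0502 in limma). Without untreated replicate 1 it was 0.73 (adjusted p = 0.544). Bub1b (BubR1), the brightest probe of this role, read -0.37 and -0.41 untreated and from 0.09 to 0.89 at 24 h, without overlap. Its difference was 0.96 ± 0.29 (adjusted p = 0.0865 in limma), and it passed in a fit of the scan day 1 arrays alone (0.0375), which called 2 of 33 with Ube2c (background 1.94%). Ttk, the kinase that starts checkpoint signalling, had 0.89 ± 0.30. Bub3, which carries Bub1 and Bub1b to kinetochores, and Mad2l1, which holds Cdc20 inactive, had differences of 0.11 ± 0.21 and -0.03 ± 0.27.

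Among kinetochore genes, Cenpe, a motor that moves chromosomes to the spindle equator, read -3.89 and -5.89 untreated, and only the first was above background. Over the 24 h arrays it ran from -4.05 to -2.52 with a median of -3.46. One of these 9 lay below the higher untreated array, and the difference was 1.49 ± 0.40 (adjusted p = 0.0593 in limma). It was 0.49 without untreated replicate 2 and 2.49 (adjusted p = 0.0145) without replicate 1. Cenpf, a large kinetochore and spindle protein, read -2.66 and -2.11 untreated and from -2.30 to -1.08 at 24 h, with overlap and a difference of 0.81 ± 0.34.

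The mitotic kinase Plk1 read -1.34 and -0.94 untreated and from -0.82 to -0.03 at 24 h (median -0.24), and its ranges did not overlap. The difference was 0.84 ± 0.23 (adjusted p = 0.0637 in limma) by the probe used and 0.02 by the other Plk1 probe, also above background on all 20 arrays. Plk4, which starts the copying of centrioles, read -0.98 and 0.54 untreated and from 0.07 to 1.32 at 24 h, with overlap and a difference of 0.81 ± 0.38. Of the 4 cyclin and CDK1 switch genes, all read above untreated. Ccnb1 (cyclin B1) read -0.89 and -0.79 untreated and from -0.51 to -0.01 at 24 h, without overlap. The differences were 0.58 ± 0.23 for Ccnb1, 0.50 ± 0.42 for Cdc25b, a phosphatase that activates CDK1, 0.31 ± 0.24 for Ccnb2 (cyclin B2) and 0.20 ± 0.27 for Ccna2 (cyclin A2). None of them passed in limma.

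The 7 spindle motor and microtubule genes had a median difference of 0.79. After Kif11 came Spag5 (1.02 ± 0.57), Nusap1 (0.98 ± 0.29), Kif2c, a motor that takes microtubules apart (0.79 ± 0.32), Kif22, the chromokinesin that pushes chromosome arms outward (0.76 ± 0.29), and Tpx2, which activates Aurora A (0.65 ± 0.30). Tpx2 read -1.57 and -1.20 untreated and from -1.21 to -0.48 at 24 h, and 1 array of 24 h overlapped the untreated ones. Tacc3, a protein of spindle fibres, had -0.00 ± 0.31. Cytokinesis genes differed widely among themselves. Prc1, which bundles the microtubules of the midzone, read -1.55 and -0.41 untreated and from -0.14 to 0.61 at 24 h, a difference of 1.24 ± 0.52, while Kif23 had 0.59 ± 0.27, Ect2 0.26 ± 0.19, Racgap1 0.13 ± 0.20 and Kif20a -0.19 ± 0.22. Top2a, which untangles sister DNA, read 0.83 and 1.16 untreated and from 1.19 to 2.31 at 24 h, without overlap and with a difference of 0.76 ± 0.27. Pttg1 (securin) had 0.72 ± 0.29, its target separase (Espl1) -0.05 ± 0.27 and Cdc20, the APC/C activator, 0.15 ± 0.19. Cdc20 was saturated on 14 of 20 arrays and Ect2 on 18, so their differences may be compressed. Cdc20 read 2.27 and 2.31 untreated and from 1.97 to 2.68 at 24 h, and Ect2 2.21 and 2.50 untreated and from 2.33 to 2.80 at 24 h, both with overlap. Of the chromosomal passenger complex, Cdca8 (borealin) had 0.64 ± 0.32, Aurkb 0.60 ± 0.48 and Birc5 (survivin) 0.12 ± 0.24.

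**Figure D3:**
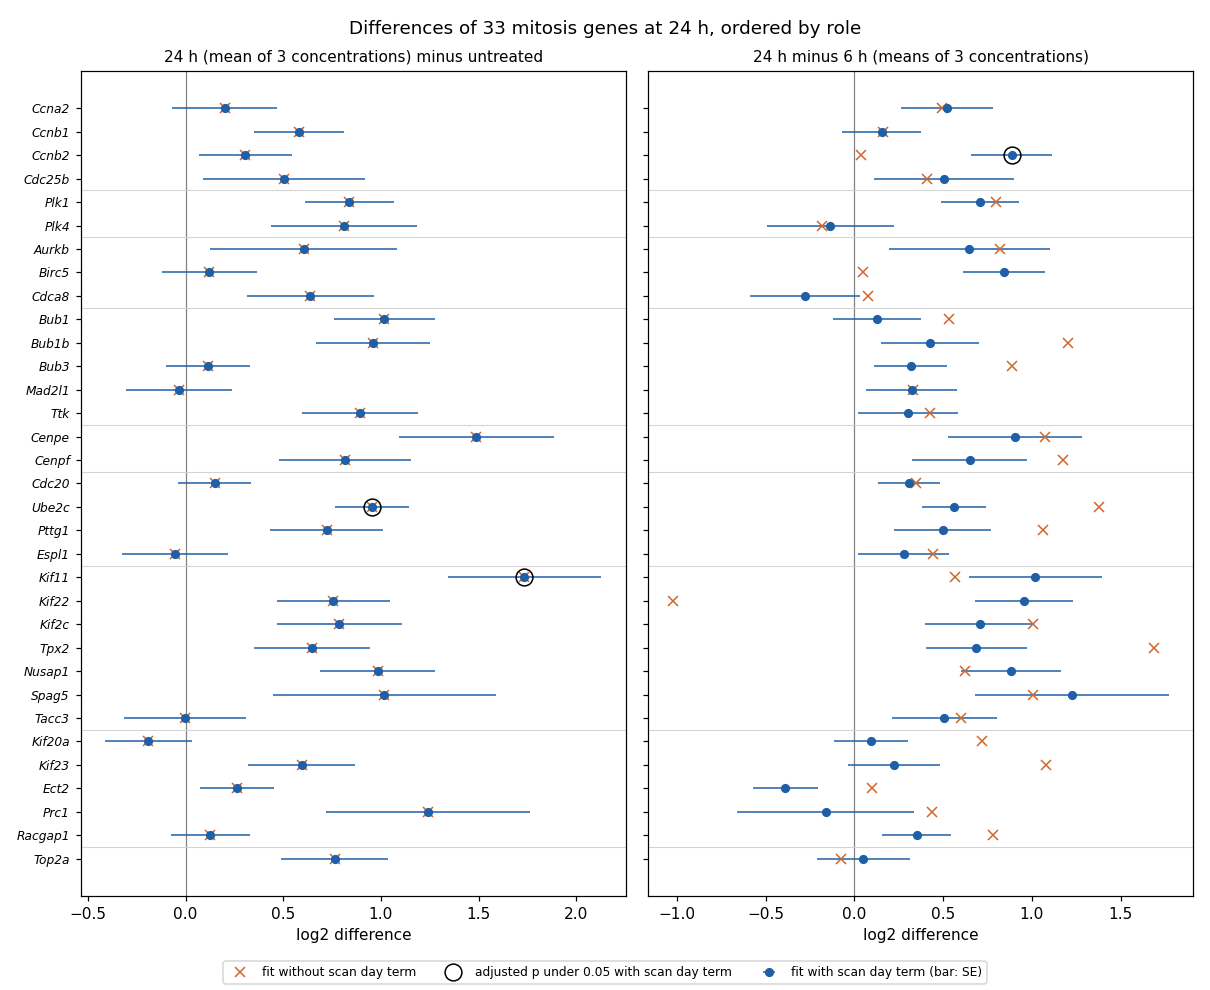
Log2 differences of 33 mitosis genes, ordered by role, between 24 h and untreated (left) and between 24 h and 6 h (right), each averaged over 3 concentrations. Circles with SE bars come from the fit with a scan day term and crosses from the fit without it, and rings mark adjusted p under 0.05 with the term. On the left circles and crosses coincide and 29 of 33 lie above 0; on the right they part, for Kif22 from 0.95 to -1.02.

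By concentration, the 3 comparisons at 24 h share the 2 untreated arrays. At 1/5, 3 of 33 genes were called, all higher, against a background of 1.4%: Ube2c (1.17 ± 0.22, adjusted p = 0.0229 in limma), Bub1 (1.35 ± 0.30, adjusted p = 0.0419) and Kif11 (2.02 ± 0.46, adjusted p = 0.0441). Ttk, with -0.26, -0.70 and -0.53 at this concentration against -1.94 and -1.82 untreated, had 1.38 ± 0.35 and an adjusted p of 0.0601. Without the scan day term none of the 3 passed (background 0.288%), and the adjusted p was 0.200, 0.117 and 0.0955. Each call also depended on single arrays: leaving out any 1 of the 3 arrays of this group put the adjusted p of Ube2c between 0.0534 and 0.0643, that of Bub1 between 0.0751 and 0.144 and that of Kif11 between 0.0638 and 0.156. At concentrations 1 and 1/25 none was called, against backgrounds of 0.457% and 0.861%, with 10 and 15 of 33 at an unadjusted p under 0.05 (backgrounds 15% and 15.6%). At concentration 1 the smallest p belonged to Nusap1 (1.34 ± 0.34, adjusted p = 0.0967 in limma), Ube2c, Kif11 and Kif2c, and at 1/25 to Ube2c (0.90 ± 0.22, adjusted p = 0.0713), Cenpe, Kif11 and Plk1. The median difference was 0.59 at concentration 1, 0.65 at 1/5 and 0.73 at 1/25, with 28, 29 and 30 of 33 genes above untreated.

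Concentration 1 was then set directly against 1/25 at each time. None of the 33 genes was called at 24 h (background 0.0072%) or at 6 h (background 0%), and 1 and 2 of 33 had an unadjusted p under 0.05 in limma (backgrounds 4.89% and 5.55%). At 24 h the median difference was -0.08 and 14 of 33 were positive. The gene with the smallest p was Kif23, a motor of the central spindle, which read 0.64 ± 0.27 (SD, n = 3) at concentration 1 and 1.34 ± 0.18 at 1/25, a difference of -0.70 ± 0.28 (SE; adjusted p = 0.976). At 6 h it was Nusap1, a microtubule bundler, with 1.03 ± 0.33 (adjusted p = 0.860). The interaction of concentration and time had 0 calls (background 0%), with 2 of 33 at an unadjusted p under 0.05 (background 4.41%). With 3 arrays a group, these tests do not show that the concentrations act alike.

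At 6 h the mitosis genes did not move together. Set against untreated, the mean of the 3 concentrations gave 0 of 33 called although 11.4% of all genes were, with 18 of 33 positive, a median of 0.10 and 5 of 33 at an unadjusted p under 0.05 in limma (background 32.9%). The single groups also gave 0 called, against backgrounds of 8.16% at concentration 1, 1.11% at 1/5 and 11.5% at 1/25. The smallest p belonged to Bub1 (0.89 ± 0.32, adjusted p = 0.0769), followed by Ect2 (0.65 ± 0.24), Birc5 (-0.72 ± 0.30) and Cdca8 (0.92 ± 0.40). Birc5 turned sign without the scan day term, to 0.08. Birc5, the survivin of the passenger complex, read from -1.27 to -0.64 on the 3 arrays of 6 h scanned on day 1, below the untreated values of -0.36 and -0.04. On the day 2 arrays it read 0.26 at concentration 1, 0.72, 0.15 and -0.03 at 1/5, and 0.32 and 0.39 at 1/25, all above untreated.

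The 24 h arrays were then set against the 6 h arrays, a comparison in which the untreated arrays play no part but the scan day does. All of these cultures had celecoxib, so longer culture and longer exposure to the drug cannot be told apart here either. With the day in the fit 29 of 33 genes read higher at 24 h, with a median of 0.50 against -0.01 over all genes. One was called, against a background of 4.42%, and 11 were higher and 1 lower at an unadjusted p under 0.05 in limma (background 21.4%). The lower one was Ect2 (-0.39 ± 0.18, adjusted p = 0.233), the exchange factor that starts the contractile ring. Its probe was saturated on 18 arrays, and the other Ect2 probe, saturated on none, read higher at 24 h (0.39). The called gene was Ccnb2, whose log2 difference was 0.89 ± 0.23 (adjusted p = 0.0393).

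Ccnb2 shows what the day term does. On scan day 1 it read -4.22 and -4.32 at concentration 1 for 6 h and -4.91 at 1/25, with 1 of these 3 arrays above background, and from -4.01 to -2.92 over the 9 arrays of 24 h. On scan day 2 the 6 h arrays read -3.11 at concentration 1, -3.16, -3.14 and -3.15 at 1/5, and -3.28 and -3.77 at 1/25. Within day 1 the 24 h arrays were all higher. The fit of day 1 alone compared only concentrations 1 and 1/25 at both times, with a difference of 0.89. With both days pooled and no day term the difference was 0.04. The call held in 10 of 28 alternative settings and array leave-outs. Without the day term the adjusted p was 0.917. Among the single arrays left out, replicate 1 of concentration 1/25 at 6 h, the only day 1 array of that group, moved it furthest (0.79, adjusted p = 0.387).

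Another 3 genes had an adjusted p under 0.08. Birc5 had 0.84 ± 0.23 (adjusted p = 0.0506 in limma), Kif22 0.95 ± 0.28 (0.0619) and Plk1 0.71 ± 0.22 (0.0786). Without the day term Birc5 was at 0.05 and Kif22 at -1.02, while Plk1 was at 0.80 with an adjusted p of 0.00215. Plk1 read from -1.47 to -0.79 on the 6 h arrays of day 1, from -1.41 to -0.63 on those of day 2 and from -0.82 to -0.03 at 24 h, so its 6 h levels were alike on both days and 1 array of 24 h overlapped them.

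The fit without the day term called 18 of 33 genes, all higher at 24 h, against a background of 20.2%. Fitting the day 1 arrays alone, which leaves out the 1/5 group at 6 h, called 4 against a background of 7.88%: Kif2c (1.13, adjusted p = 0.0308 in limma), Plk1 (0.93, 0.0338), Nusap1 (0.91, 0.0419) and Ccnb2. The median over the 33 genes was 0.56 without the term and 0.49 on day 1 alone. In 8 of 33 genes (Aurkb, Birc5, Ccnb2, Cenpe, Kif11, Kif22, Spag5 and Ube2c) all 9 arrays of 24 h lay above the 3 arrays of 6 h of day 1, against 6.16% of all genes, and in none did they all lie below (5.16%). Most of these genes were dim on those 3 arrays. Aurkb, Cenpe and Kif11 were above background on 0 of the 3, Ccnb2 and Spag5 on 1 and Kif22 on 2.

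**Figure D4:**
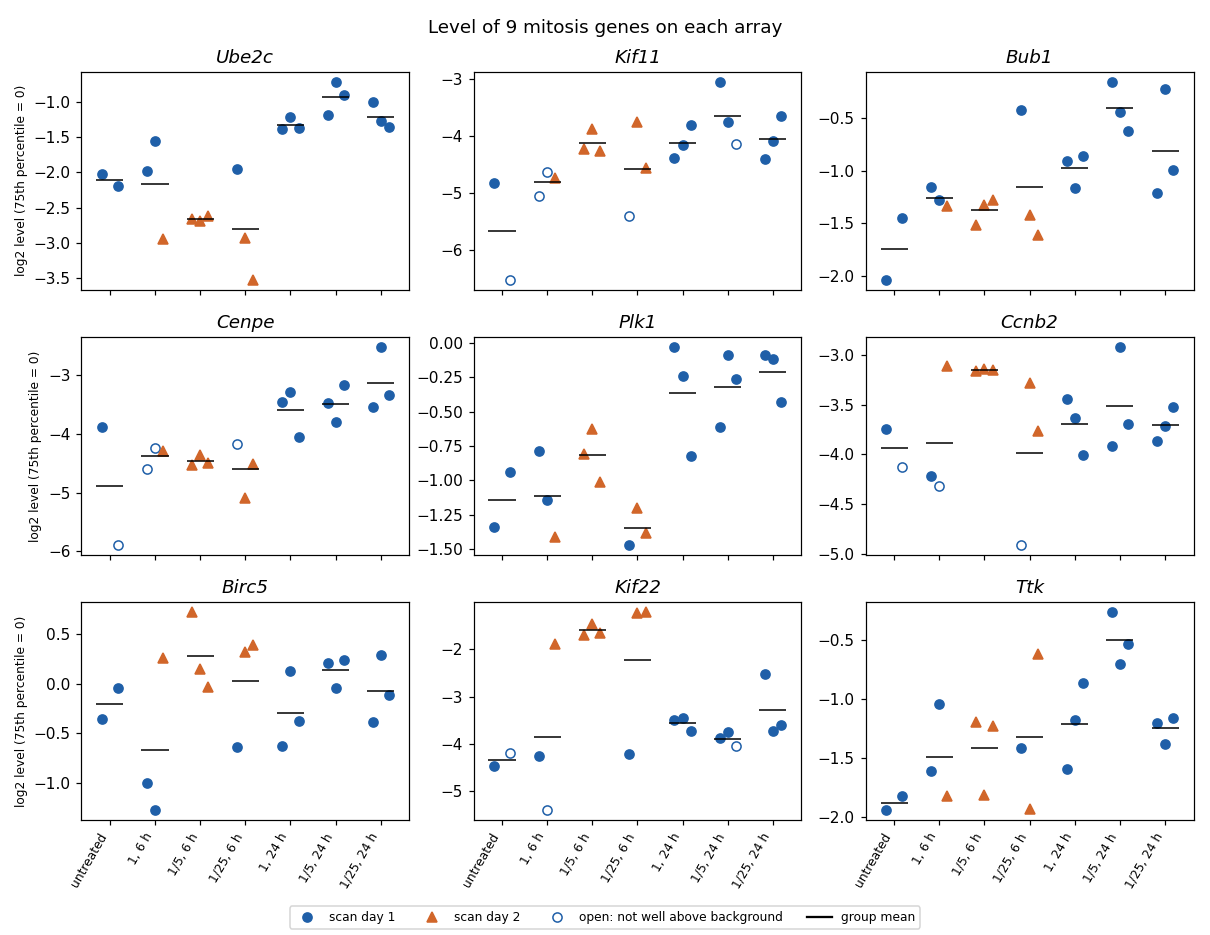
Log2 level of 9 mitosis genes on each of the 20 arrays, by celecoxib concentration and time, with circles for scan day 1, triangles for scan day 2, open symbols for arrays not well above background and bars for group means. For Plk1 the 6 h symbols of both days mix, while Kif22 sits between -1.89 and -1.21 on all 6 arrays of day 2 and at -2.53 or lower on all 14 of day 1.

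Between the scan days 11 of the 33 genes differed, against 32.3% of all genes. The day 2 arrays lay on 2 slides that held no day 1 array, so scan day and slide cannot be told apart here. Kif22 read from -1.89 to -1.21 on the 6 arrays of day 2 and from -5.40 to -4.22 on the 3 arrays of 6 h of day 1, a difference of 2.97 ± 0.32 (adjusted p = 2.1e-05 in limma). Ccnb2 (1.27 ± 0.26) and Birc5 (1.20 ± 0.27) were also higher on day 2. Lower on day 2 were Tpx2 (-1.50 ± 0.33), Kif23 (-1.29 ± 0.30), Ube2c (-1.23 ± 0.21), Bub1b (-1.16 ± 0.32), Kif20a (-0.94 ± 0.24), Bub3 (-0.85 ± 0.24), Ect2 (-0.73 ± 0.21) and Racgap1 (-0.65 ± 0.22). Ube2c, for example, read -1.98, -1.56 and -1.95 on the 6 h arrays of day 1 and from -3.52 to -2.62 on those of day 2, without overlap. These were the genes in which the days did not overlap at 6 h, 3 higher against 15.4% of all genes and 8 lower against 22.2%.

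A second probe gave a check on these differences for 9 genes with further probes above background on at least 10 arrays. At 24 h against untreated all probes of a gene had the same sign in 8 of the 9, the exception being Racgap1, a GTPase regulator of the midzone (0.13, 0.41 and -0.26). For 24 h against 6 h this held in 5 of 9, the others being Cenpf (0.65 and -0.12), Ect2 (-0.39 and 0.39), Top2a (0.05 and -0.22) and Ttk (0.30 and -0.43), and for scan day it held in 4 of 9. Top2a differed between scan days by 0.19 on the probe used and by -1.50 on the other, and the 3 Racgap1 probes by -0.65, 1.48 and 0.07. The 2 probes of Ect2 had -0.73 and 0.23, those of Plk1 -0.13 and 0.56 and those of Ccna2 0.04 and -0.03. For Kif11 the second probe was above background on 7 arrays and had a difference of 0.33 between 24 h and untreated, against 1.73 for the probe used.

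**Figure D5:**
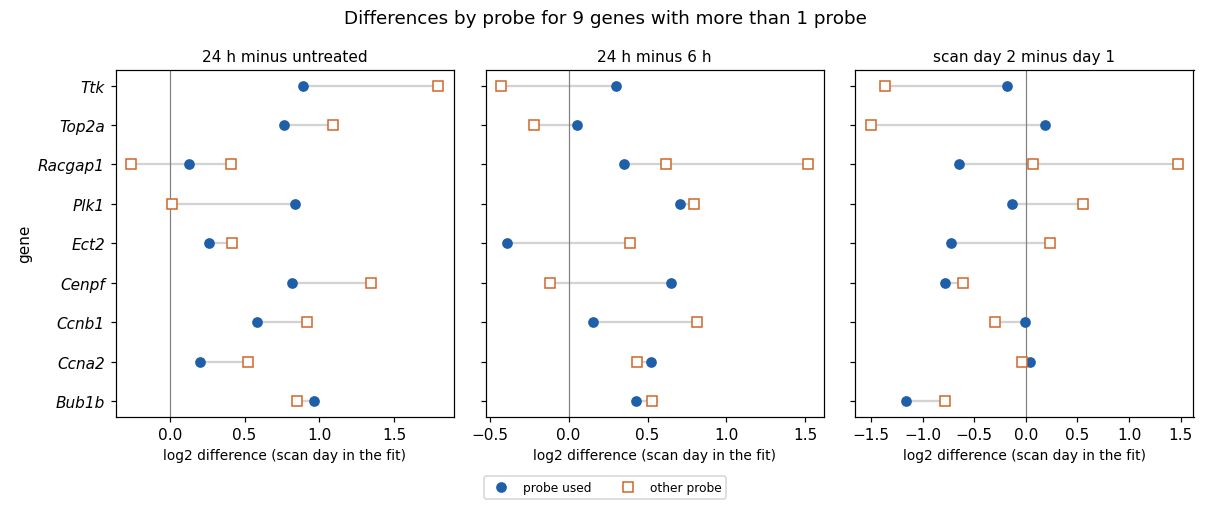
Log2 differences by probe for 9 mitosis genes with more than 1 probe above background on at least 10 arrays, with the probe used as a filled circle and the others as open squares; scan day is in the fit. Probes of a gene lie on the same side of 0 for 8 of 9 genes at 24 h against untreated and for 4 of 9 between scan days.

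Of the 11 genes without a probe of their name, 8 were found under an older name through RefSeq and 3 (Cdca3, Ncaph and Nek2) were not. Smc2, here Smc2l1, cleared background on 5 arrays and did not enter the fit. The other 7 were Aurka (Stk6), Cenpa, Cks2, Ncapd2, Ndc80 (Kntc2), Nuf2 (Cdca1) and Smc4 (Smc4l1), all above background on all 20 arrays. At 24 h against untreated 6 of the 7 read higher, from -0.23 to 0.97 with a median of 0.15, and none was called in limma (background 2.44%). At 24 h against 6 h all 7 read higher with the day term, with a median of 0.42 and none called (background 4.42%). Without the day term Cks2 turned to -0.80, and Ncapd2 (0.92), Ndc80 (0.77), Nuf2 (0.84) and Smc4 (0.77) were called, in a fit that called 20.2% of all genes. The widest differences were those of Cks2, a small CDK-binding protein, at 0.97 ± 0.27 (adjusted p = 0.0673) against untreated and 0.85 ± 0.26 (0.0726) against 6 h, and Cks2 was also higher on scan day 2 by 2.48 ± 0.30.

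Other genes of cell division were read from lists outside the 45. With the day term, 2.44% of all genes were called at 24 h against untreated and 4.42% against 6 h. Without the day term these shares were 0.692% and 20.2%. Of 26 other mitosis genes tested, 20 read above untreated at 24 h with a median of 0.38, and 1 was called, Aspm, a spindle pole protein (1.00 ± 0.25, adjusted p = 0.0483 in limma, and 0.136 without the day term). Cdc2a, the gene of CDK1 itself under its older name, had 0.64 ± 0.18 (adjusted p = 0.0683). Against 6 h, 16 of the 26 read higher and none was called, the smallest p being those of Stmn1 (0.54 ± 0.16) and Mybl2 (0.87 ± 0.25), a transcription factor that acts on the CHR. Without the day term Stmn1 turned to -0.27 and Mybl2 had 0.19. Of 27 DNA replication and G1/S genes, 19 were above untreated (median 0.19) and none was called, with the smallest p in Prim1 (0.69 ± 0.21) and Rfc5 (-1.39 ± 0.49). Against 6 h, 21 of the 27 were higher (median 0.36), and Prim2, a primase subunit, was called (1.59 ± 0.26, adjusted p = 0.00424), followed by the helicase subunit Mcm6 (1.54 ± 0.46). Without the day term Prim2 had 0.51 (adjusted p = 0.195) and lost its call, while Mcm6 had 1.49 and passed (adjusted p = 0.00231). Of 12 subunits and partners of the APC/C, Anapc1 was called higher at 24 h than at 6 h (1.00 ± 0.20, adjusted p = 0.0144), followed by Anapc10 (0.98 ± 0.30). Without the day term Anapc1 had 0.47 (adjusted p = 0.0740) and Anapc10 turned to -1.51, and Anapc10 read 3.73 ± 0.34 higher on scan day 2. Against untreated none of the 12 was called, with the smallest p in Fbxo5 (0.98 ± 0.40) and Anapc10 (0.67 ± 0.31). None of 15 cell cycle brakes was called in either 24 h comparison. Those with the smallest p against untreated were the CDK inhibitors Cdkn1b (0.62 ± 0.20) and Cdkn2c (1.20 ± 0.40), and 11 of the 15 lay above untreated (median 0.21). Against 6 h they were Cdkn2b (0.88 ± 0.29) and Rbl2 (-0.58 ± 0.20), which had 0.53 and 0.05 without the day term. None of the 4 cohesin genes was called in either 24 h comparison, and Esco2 and Stag2 had 0.47 ± 0.41 and 0.36 ± 0.27 against untreated. At 6 h against untreated (background 11.4%), Prim2 (-1.52 ± 0.34), Rfc5 (-2.28 ± 0.61) and Cdkn2b (-1.31 ± 0.38) were called lower. Rbl2 (0.90 ± 0.26) and Hmmr (0.90 ± 0.26), another mitosis gene, were called higher there. Without the day term none of these calls at 6 h held.

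Marker lists of the cell types were read beside these differences, in the same fits and so with the same shares of all genes called. Between 24 h and untreated no marker of cardiomyocytes (14 tested), fibroblasts (10), smooth muscle (6), endothelium (3), macrophages and leukocytes (8) or erythroid cells (2) was called. Between 24 h and 6 h the fibroblast marker Lum (1.65 ± 0.33, adjusted p = 0.0115 in limma) and the mural cell marker Pdgfrb (1.20 ± 0.23, adjusted p = 0.00918) were higher. Over the whole lists, 5 of 10 fibroblast markers read higher with a median of -0.01, and 5 of 6 smooth muscle markers with a median of 0.30. At 6 h against untreated (background 11.4%), Lum (-1.50 ± 0.42) and the macrophage markers C1qb (-1.24 ± 0.32) and Cd14 (-1.16 ± 0.33) were called lower. No marker was called higher there, and without the day term these calls did not hold. The mean log2 level over the fibroblast markers ran from -0.18 to 0.34 at 24 h, from -0.30 to -0.04 and from -0.37 to -0.21 on the 6 h arrays of days 1 and 2, and was -0.36 and 0.21 untreated. That of the cardiomyocyte markers ran from 0.63 to 1.43 at 24 h, from 0.58 to 1.41 at 6 h and was 1.04 and 1.13 untreated, and the ranges overlap. Of the macrophage and leukocyte markers, 7 of 8 read higher at 24 h than at 6 h with a median of 0.65 and none called. Their mean level ran from -2.24 to -1.84 at 24 h, from -2.97 to -2.20 at 6 h and was -2.36 and -1.87 untreated. The endothelial and erythroid means lay at -3.34 or lower on every array. The part of the makeup of the cultures in the mitosis gene differences was not tested.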

How the data were processed

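RNA of 20 heart cell cultures was read on 1-colour arrays. The deposited scanner files hold linear intensity values of each spot; per the file headers the authors used Agilent Feature Extraction 9.5.3.1 with spatial and multiplicative detrending on. The authors' deposited value table holds a linear ratio per probe; 99.6% of 820240 values lay within 0.01 log2 of median-scaled processed signal over the mean of the untreated arrays, after each column was centred, so the divisor of each array was not tested. Its column medians ran from 0.826 to 1.27, and it served as an alternative.

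Outlier spots were left out, spots of a probe were averaged, and each array was scaled by taking off the log2 of its own 75th percentile. All 27787 genes with a probe above background on every array of a group were fitted in limma 3.58.1 (R 4.3.3) with a mean for each of 7 groups and a scan day term (12 residual degrees of freedom, 15.3 after moderation), 13 comparisons, two-sided tests and Benjamini-Hochberg adjustment over all genes. The members and the lists of other genes were chosen with earlier results of these data known, and the day term was added because those showed the days apart. Values per array are given for called genes (at most 8 a comparison), or the 4 smallest p where under 4 were called, and for the brightest gene of each role, as ranges where these were many. Other lists give their 2 smallest p. Probes of opposite sign are given together in the paragraph on second probes. Prc1 was added after its values were seen, and so were the markers Lum and Pdgfrb, as the ones called. In simulated data with 200 of 27134 genes changed by 1 or 2 on the log2 scale, 24 h against untreated recovered 25.5% and 81.5%, and 24 h against 6 h 22% and 81.5%. The number of arrays limits the precision. Alternatives covered scan day, slide, replicate block, normalization, background, filter, probe choice and each array left out.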

Additional observations from a re-analysis of the deposited data

How the results depend on the processing

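Counts below are mitosis genes called of 33 by limma at an adjusted p of 0.05, each followed in parentheses by the share of all genes called in the same fit. Of these counts under other settings, 184 equalled those reported or lay within 1.5 times of them, and many of these were 0 in both fits. A further 35 rose and 25 fell, where any move from or to 0 counts as a rise or a fall. The cause of these moves was not tested. Without the scan day term, 1/5 at 6 h had 1 (6.52%), 1/5 at 24 h 0 (0.288%), 24 h against untreated 0 (0.692%) and 24 h against 6 h 18 (20.2%); Birc5 at 6 h against untreated turned to 0.076 and Kif22 at 24 h against 6 h to -1.02. With scan day 1 arrays alone, 6 h against untreated had 1 (18.1%) and 24 h against 6 h 4 (7.88%). Both of these day 1 comparisons used concentrations 1 and 1/25 alone at each time. With slide as a random block, 1/25 at 24 h had 2 (2.25%), 24 h against untreated 7 (5.47%) and 24 h against 6 h 3 (6.07%). The correlation within a slide was estimated at -0.07 in that fit, a negative value that a shared slide effect would not give. After quantile normalization, concentration 1 at 6 h had 3 (6.06%), 1/25 at 6 h 1 (5.91%), concentration 1 at 24 h 3 (0.515%), 1/5 at 24 h 5 (2.38%), 1/25 at 24 h 3 (0.94%), 6 h against untreated 2 (6.86%), 24 h against untreated 10 (3.49%) and 24 h against 6 h 0 (2.81%), and Ccnb2 in 1/25 at 6 h against untreated turned to 0.036. With normexp, concentration 1 at 6 h had 1 (6.4%) and 6 h against untreated 1 (9.49%). With no filter on dim probes, 1/5 at 24 h had 1 (0.611%) and 24 h against 6 h 0 (2.21%). With the mean of all probes, concentration 1 at 6 h had 1 (7.43%), 1/25 at 6 h 1 (10.5%), 1/25 at 24 h 1 (0.832%) and 6 h against untreated 1 (10.4%). In the authors' deposited table, concentration 1 at 6 h had 1 (7.21%), 1/25 at 6 h 3 (21%), 1/25 at 24 h 3 (0.68%), 6 h against untreated 4 (16.7%), 24 h against untreated 7 (2.36%) and 24 h against 6 h 0 (2.91%); there the median of all genes at 24 h against untreated was 0.29 and that of the mitosis genes 0.95. Without both arrays that stand apart, chosen after seeing the data, 1/25 at 24 h had 2 (0.444%) and 24 h against 6 h 4 (8.93%).

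Leaving out 1 array at a time gave 0 to 2 for 1/25 at 6 h (12 to 6905 of all genes called), 0 to 3 for 1/5 at 24 h (39 to 1711), 0 to 1 for 1/25 at 24 h (55 to 1072), 0 to 2 for 6 h against untreated (248 to 5752), 1 to 3 for 24 h against untreated (80 to 2005), 0 to 4 for 24 h against 6 h (99 to 1964) and 4 to 11 for scan day (2262 to 9336). Ube2c at 24 h against untreated passed in 18 of 22 settings and Kif11 in 12 of 21. Slide as a fixed block could be fitted only for concentrations 1 and 1/5 at 6 h against untreated and for concentration 1 against 1/25 at 24 h. Of 57 pairs of arrays with the same replicate number in different groups, 11 correlated above 0.1 once group and scan day were taken off. Their mean correlation was -0.02, against 0.01 for 114 pairs of unlike number. With 2 or 3 arrays a group, this cannot tell whether arrays of the same number shared a culture. With the replicate block, 1/5 at 24 h had 1 call (0.425%), 24 h against untreated 1 (1.07%) and 24 h against 6 h 0 (3.22%). The 8 genes not above background on every array have values near it, which limits their precision.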
